A study of Mus musculus with 16 samples.

Results

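The lysyl oxidases and collagen hydroxylases are enzymes that modify collagen while it is made in the cell and after it has been secreted. A list of 10 genes was followed: the lysyl oxidases Lox, Loxl1, Loxl2 and Loxl3, the prolyl 4-hydroxylase alpha subunits P4ha1, P4ha2 and P4ha3, and the lysyl hydroxylases Plod1, Plod2 and Plod3. The members were chosen by gene symbol, and where a gene had several probe sets, the one with the greatest average signal stood for it. Of the 10 genes, 9 had a probe set listed under their symbol alone, out of 17097 such genes on the array. No probe set was listed for P4ha1, which was not analysed here. All 9 measured members passed the filter on dim genes, with which 14819 genes were tested.

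Prolyl 4-hydroxylases work in the endoplasmic reticulum, where they convert prolines of the procollagen chain to 4-hydroxyproline, which keeps the triple helix stable at body temperature. Lysyl hydroxylases convert lysines of the same chains to hydroxylysine, which carries sugars and gives more durable cross-links, and Plod2 is known for acting on the short telopeptides at the ends of the chain. Lysyl oxidases are copper enzymes that act outside the cell: they oxidise lysine and hydroxylysine of collagen and lysine of elastin to aldehydes, from which the covalent cross-links of the dermis form. The hydroxylases need iron, oxygen, 2-oxoglutarate and ascorbate, and several genes of both classes are textbook targets of the hypoxia-inducible factors.

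The cells were dermal fibroblasts, which make the matrix of the skin, from C57Bl/6 females: 4 young mice of 2 months and 4 old mice of 18 months. Each mouse gave 1 sample profiled straight after isolation, which the labels call in vivo, and 1 sample profiled after culture, so that the 16 arrays form 4 groups of 4, in vivo (also called fresh here) and cultured cells of either age. RNA came from 5000 cells per sample, and its cDNA was amplified over 23 cycles before hybridisation to an Affymetrix mouse array. The study asked how culture bears on age-related differences in these cells. The labels name no transgene and no agent, and the medium, the time in culture and the passage number are not stated in the sources at hand. The labels do not tie in vivo to cultured samples of 1 mouse, so no pairing could be used.

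Array medians were 4.83 to 4.92 in vivo and 4.74 to 4.76 in culture on the log2 scale. The 75th percentiles were 6.46 to 6.66 in vivo and 6.73 to 6.85 in culture, so both measures separated the conditions. Correlations over all probe sets were 0.977 to 0.992 among in vivo arrays, 0.987 to 0.996 among cultured arrays and 0.879 to 0.913 between the conditions. Among the fibroblast markers, Pdgfra was near background, with means of 4.98 and 5.05 in fresh young and old and 4.63 and 4.75 in cultured cells. All 9 fibroblast markers passed the filter on dim genes. Their summed linear level was 27410 to 28080 in fresh young, 25370 to 29110 in fresh old, 13080 to 14620 in cultured young and 13020 to 14220 in cultured old arrays, and 8 of the 9, none of them members, were lower in culture. One array stood apart by markers of another cell type. Old in vivo replicate 1 had a value of 9.68 for the basal keratin Krt5, against 5.74 to 6.14 in the other old in vivo arrays and 5.94 to 6.30 in the young ones. It also had 7.11 for Krt14, against 4.78 to 4.92 in the other old in vivo arrays, and 6.73 for the desmosome gene Dsp, against 3.59 to 4.07. Krt15 (6.05, against 4.96 to 5.23) and Krt1 (4.90, against 3.60 to 3.75) were higher in it too. The other keratinocyte markers did not follow. Krt10 was lower in it (6.65, against 7.35 to 7.51), Trp63 (6.72) lay within 5.90 to 6.96, and Epcam (4.08, against 3.93 to 3.98) stayed near background. The summed linear level of the 8 keratinocyte markers was 362 to 474 in fresh young, 401 to 1383 in fresh old, 212 to 234 in cultured young and 211 to 238 in cultured old arrays; of these markers, Krt1, Dsp and Epcam had group means near background (below 4.75, the 95th percentile of 12 poly-A control probe sets) in all groups. Other cell types' markers were also lower in culture, in 5 of 7 tested endothelial, 5 of 6 macrophage, 4 of 4 T cell, 4 of 4 melanocyte and 2 of 2 leukocyte genes. Of the measured markers of these types, 5 of 7, 4 of 8, 4 of 4, 3 of 5 and 2 of 3 had group means near background in all groups. Pericyte and smooth muscle markers had 2 of 5 genes higher and 2 lower in culture. Their summed level was 248 to 307 in fresh young and 316 to 556 in fresh old arrays. In culture it was 669 to 973 in young and 358 to 563 in old arrays. With age in vivo, 1 pericyte and smooth muscle marker was called higher, and 1 macrophage and 1 fibroblast marker were called lower. No other marker list had an age call in vivo. The part of these cell types in the results was not tested, and the members' culture changes in old cells and age differences in vivo are also given without this array. In bulk RNA, fewer cells of a type and less RNA per cell cannot be told apart.

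**Figure D1:**
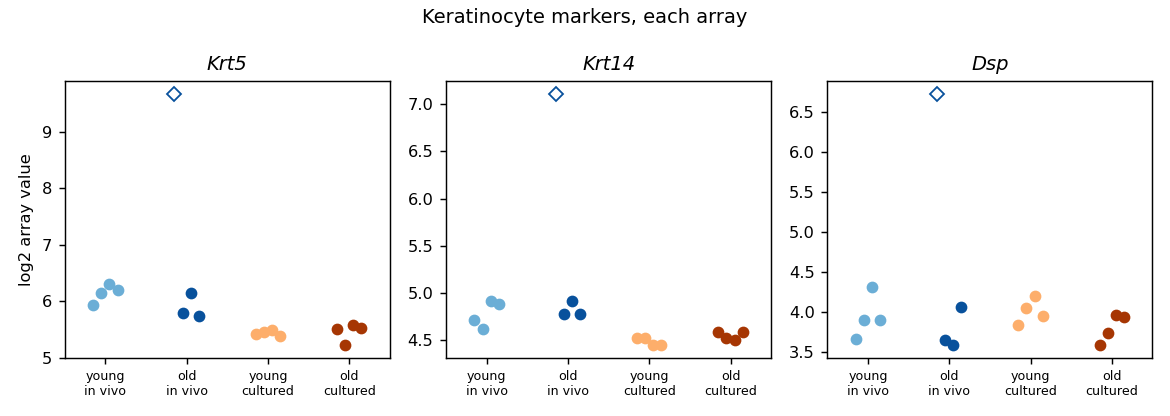
Log2 array values (y axis) of 3 keratinocyte markers in each of the 16 arrays, by group (x axis); the open diamond is old in vivo replicate 1. That array lies above all others for Krt5 (9.68), Krt14 (7.11) and Dsp (6.73). Among the old in vivo arrays it is the lowest for Krt10 (6.65), which is not drawn.

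The reference tables held a promoter for 5 of the 10 genes, P4ha1, P4ha2, P4ha3, Plod1 and Plod3. Shown here, because they belong to measured members that moved in different ways with culture (P4ha3 and Plod3 higher, P4ha2 lower in young cells), are the 250 bases upstream of the transcription start given with each promoter, from RefSeq, build GRCm38.p6. They lie on the plus strand at chr11:54100674-54100923 (P4ha2), chr5:136986769-136987018 (Plod3) and chr7:100285270-100285519 (P4ha3). The P4ha3 window runs past the start listed for the gene, 100285489, so its last bases lie inside the listed gene. The P4ha1 window (59323046 to 59323295), counted below, also runs past its listed gene start, 59323197. Capitals mark the core of the hypoxia response element, ACGTG or GCGTG on either strand.
P4ha2: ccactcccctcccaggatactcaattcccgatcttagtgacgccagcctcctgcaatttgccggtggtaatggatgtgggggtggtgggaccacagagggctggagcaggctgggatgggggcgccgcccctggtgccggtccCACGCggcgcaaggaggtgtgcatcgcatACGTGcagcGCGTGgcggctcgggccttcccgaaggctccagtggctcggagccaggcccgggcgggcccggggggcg
Plod3: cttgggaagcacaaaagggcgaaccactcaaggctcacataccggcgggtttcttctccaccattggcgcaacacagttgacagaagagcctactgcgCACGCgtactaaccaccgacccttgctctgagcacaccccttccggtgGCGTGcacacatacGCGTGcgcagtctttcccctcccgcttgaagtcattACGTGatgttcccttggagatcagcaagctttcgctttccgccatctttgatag
P4ha3: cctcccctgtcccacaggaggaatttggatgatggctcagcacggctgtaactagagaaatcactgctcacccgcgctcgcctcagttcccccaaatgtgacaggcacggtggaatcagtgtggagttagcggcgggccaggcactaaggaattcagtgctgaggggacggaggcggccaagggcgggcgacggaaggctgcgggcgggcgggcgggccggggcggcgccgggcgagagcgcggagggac
The core was found 3 times in the window of P4ha2, 4 times in that of Plod3 and 0 times in that of P4ha3. It was found 3 times in the window of P4ha1 and 1 time in that of Plod1. Of all 32851 promoter windows of this length, 38.6% held it at least 1 time. The TEAD motif GGAATG (12.6% of all windows) and the AP-1 motif TGANTCA (6.75%), each searched on both strands, were in none of the 5 windows. A match is a run of letters, not a shown binding site, and the windows of Lox, Loxl1, Loxl2, Loxl3 and Plod2 were not analysed here.

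The comparison of cultured with freshly isolated cells split the enzymes. Cultured cells of both ages had more RNA of Lox, Loxl3, P4ha3, Plod2 and Plod3, and less of Loxl1. P4ha2 and Loxl2 were lower in cultured than in fresh cells of young mice. With both ages averaged, 5 of the 9 members were higher and 2 lower, and 2 did not pass; over all genes 34.8% were called higher and 44.7% lower, 79.5% in all, so that being called here is common. Calls are adjusted p under 0.05 (limma, Benjamini-Hochberg over all genes tested). The median log2 change of the 9 members was 0.77, against -0.11 over all genes. In young cells 5 members were higher, 3 lower and 1 not called (32.6% and 38.6% of all genes, 71.2% in all), and in old cells 6 were higher, 1 lower and 2 not called (30.2% and 32.5%, 62.8% in all). The values of the 5 members that rose did not overlap between the 8 in vivo and the 8 cultured arrays, which held upward for 23.9% and in either direction for 45.1% of all genes. Scaling to the 75th percentile moved the median of all genes to -0.31 and the share of higher calls from 43.7% to 32.5%; the 5 members that rose and the 2 that fell kept their directions and calls under this scaling and under cyclic loess. Without old in vivo replicate 1 the changes in old cells were 2.57 for Lox, 3.55 for Loxl3, 3.335 for P4ha3, 3.73 for Plod2, 0.73 for Plod3, 0.43 for Plod1 and -0.79 for Loxl1, all still called, and P4ha2 and Loxl2 (-0.01) did not pass.

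Among the lysyl oxidases, Loxl3, a family member with scavenger receptor domains, had the largest change. Its log2 values were 6.09, 6.95, 6.86 and 6.91 in fresh young, 6.61, 7.24, 6.94 and 6.98 in fresh old, 10.73, 10.70, 10.59 and 10.59 in cultured young and 10.35, 10.58, 10.81 and 10.69 in cultured old cells. Every cultured array lay above every in vivo array, and the ages overlapped within each condition. Loxl3 was 14.0-fold higher in culture (log2 change 3.81 ± 0.12, SE, n = 8 per condition, adjusted p = 3.59e-14), 15.5-fold in young and 12.7-fold in old cells, and ranked 66th of 14819 genes by the averaged change.

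Lox, the founding enzyme of the family, was at 10.20, 9.85, 10.04 and 10.03 in fresh young and 9.61, 8.35, 9.09 and 9.35 in fresh old cells. In young cultured cells it was at 11.56, 11.47, 11.42 and 11.17, and in cultured old cells at 11.82, 11.46, 11.29 and 11.42. The cultured groups thus lay together above both in vivo groups, and the old in vivo arrays were the lowest. Lox rose 2.59-fold with culture in young cells (log2 change 1.38 ± 0.20, adjusted p = 1.23e-05) and 5.27-fold in old cells (2.40 ± 0.20, adjusted p = 2.02e-08, limma). A second probe set of Lox gave larger changes, 1.88 ± 0.20 in young and 3.33 ± 0.20 in old cells. Another probe set of the gene was dim in all arrays, with group means of 3.26 to 3.62, and was not tested.

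Loxl1, which is tied to elastic fibres, was the one of the 4 lysyl oxidases called lower in culture at both ages. It was at 10.72, 10.56, 10.74 and 10.77 in fresh young, 10.03, 10.80, 10.97 and 11.26 in fresh old, 10.26, 10.18, 10.06 and 10.12 in cultured young and 10.26, 10.33, 10.21 and 10.08 in cultured old cells. Only old in vivo replicate 1, the array with high keratins, reached down to the cultured values. The change was -0.54 ± 0.12 (1.46-fold lower, adjusted p = 8.56e-04, limma) with all arrays and -0.67 ± 0.07 without that array. By a second probe set it was -0.38 ± 0.15 (adjusted p = 0.0326), and neither age passed on its own (-0.47 and -0.295). The call in old cells was also lost without old in vivo replicate 4 (-0.38, adjusted p = 0.0541) and with the mean over probe sets (-0.42, adjusted p = 0.0627).

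Loxl2, which cross-links fibrillar and basement membrane collagens, was at 9.68, 9.09, 8.89 and 9.16 in fresh young and 7.87, 8.75, 8.54 and 8.84 in fresh old cells. In culture it kept to a narrow range, 8.71 to 8.83 in young and 8.64 to 8.80 in old cells. The young in vivo arrays lay above all others. The difference with culture was -0.44 ± 0.18 in young cells (adjusted p = 0.0364) and 0.20 ± 0.18 in old cells (adjusted p = 0.336, limma). With both ages averaged Loxl2 did not pass (-0.12 ± 0.13, 95% interval -0.39 to 0.15), but was called lower at the 75th percentile scaling (-0.32), after cyclic loess (-0.43) and without old in vivo replicate 1 (-0.23 ± 0.09, adjusted p = 0.0397). The call in young cells was lost without young in vivo replicate 1, the highest array (-0.28, adjusted p = 0.140), and, at -0.46 to -0.425, without young in vivo replicate 4 or young cultured replicate 1, 2 or 4.

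**Figure D2:**
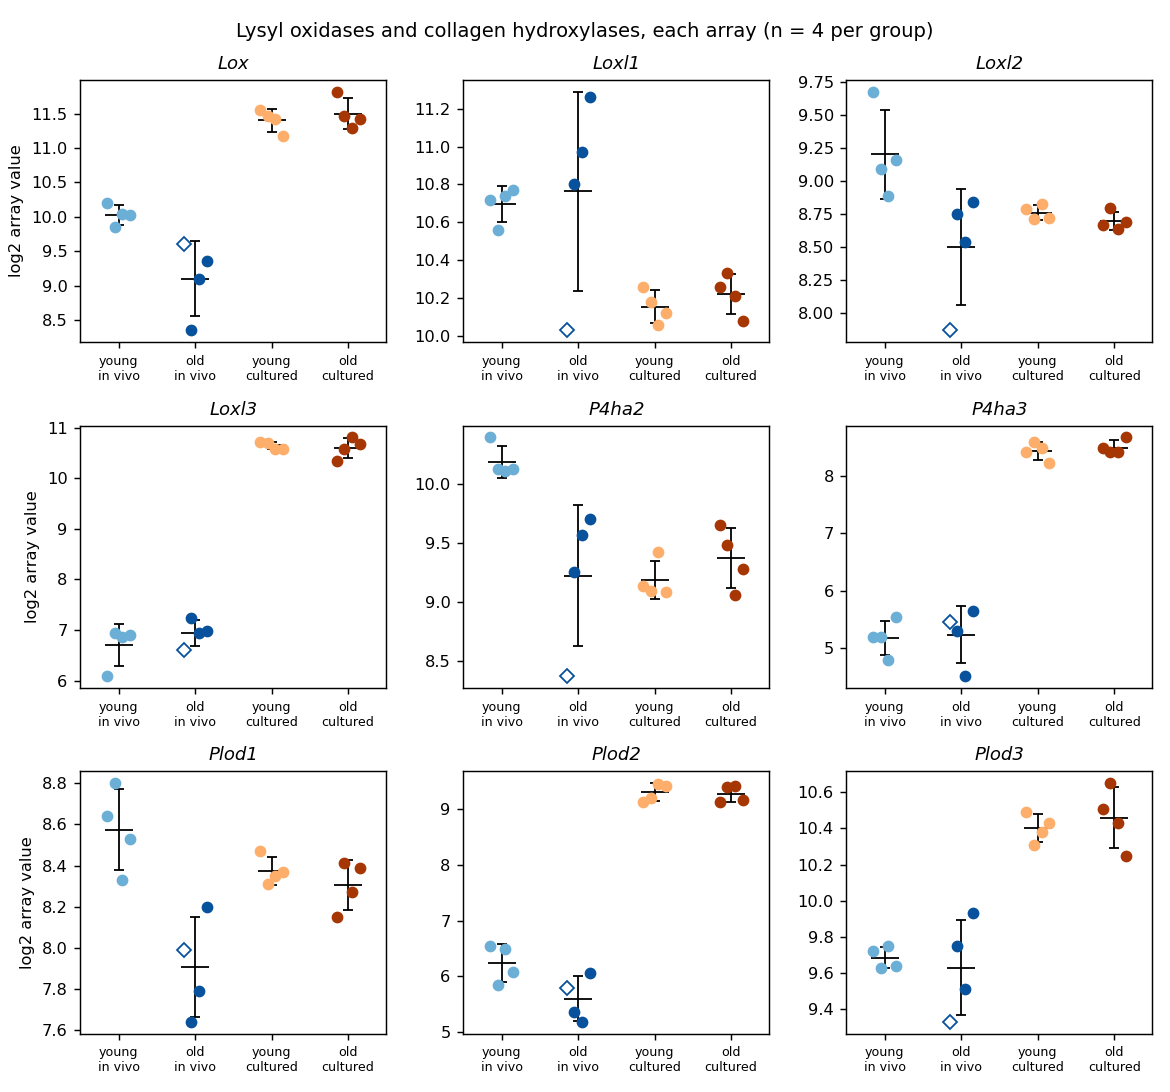
Log2 array values (y axis, a separate range for each gene) of the 9 measured members in each array, by group (x axis); bars are the mean and SD of 4 arrays and the open diamond is old in vivo replicate 1. Loxl3, P4ha3, Plod2, Lox and Plod3 lie higher in all 8 cultured arrays, and Lox, Loxl2, P4ha2 and Plod1 are lower in all old than in all young in vivo arrays.

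The alpha subunits of prolyl 4-hydroxylase carry the catalytic site and pair with the shared beta subunit P4hb. P4ha3 was at 5.20, 5.19, 4.80 and 5.54 in fresh young, 5.46, 5.31, 4.52 and 5.65 in fresh old, 8.41, 8.59, 8.49 and 8.22 in cultured young and 8.49, 8.41, 8.41 and 8.67 in cultured old cells. Its in vivo arrays were close to the level of the control probe sets (4.75), where array values understate differences, and its cultured arrays were far above it. The gene was 9.53-fold higher in culture (log2 change 3.25 ± 0.14, adjusted p = 1.47e-12, limma), 9.48-fold in young and 9.58-fold in old cells.

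P4ha2 followed another order. Its values were 10.39, 10.12, 10.11 and 10.12 in fresh young, 8.37, 9.25, 9.56 and 9.70 in fresh old, 9.13, 9.09, 9.42 and 9.08 in cultured young and 9.65, 9.48, 9.06 and 9.28 in cultured old cells. The young in vivo group stood above the other 3, which overlapped one another. In young cells P4ha2 was 2.01-fold lower in culture (95% interval of the log2 change -1.46 to -0.55, adjusted p = 5.88e-04, limma). In old cells the change was 0.15 ± 0.21 (adjusted p = 0.556), and -0.14 ± 0.14 without old in vivo replicate 1. The partner subunit P4hb, also known as protein disulfide isomerase, did not pass with culture (0.03, adjusted p = 0.593), and both other scalings called it lower (-0.16 by the 75th percentile, -0.26 by cyclic loess).

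Of the lysyl hydroxylases, Plod2, the telopeptide enzyme, was at 6.55, 5.85, 6.49 and 6.08 in fresh young, 5.80, 5.36, 5.19 and 6.06 in fresh old, 9.12, 9.19, 9.45 and 9.41 in cultured young and 9.12, 9.38, 9.41 and 9.16 in cultured old cells. It was 10.2-fold higher in culture (log2 change 3.36 ± 0.13, adjusted p = 3.62e-13, limma), 8.28-fold in young and 12.7-fold in old cells. Its second probe set gave 2.92 ± 0.07, from in vivo means of 4.45 and 4.33, which are at background.

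Plod3, a lysyl hydroxylase that also transfers sugars to hydroxylysine, was at 9.63 to 9.75 in fresh young, 9.33 to 9.93 in fresh old, 10.31 to 10.49 in cultured young and 10.25 to 10.65 in cultured old cells. Its change was the smallest of the 5 that rose, 1.71-fold (0.77 ± 0.08, adjusted p = 1.83e-07, limma). Plod1, which acts on the helical part of collagen, was at 8.64, 8.80, 8.33 and 8.53 in fresh young, 7.99, 7.64, 7.79 and 8.20 in fresh old, 8.31 to 8.47 in cultured young and 8.15 to 8.41 in cultured old cells. With both ages averaged it did not pass (0.10 ± 0.08, 95% interval -0.08 to 0.28, adjusted p = 0.279), and after cyclic loess its direction turned to -0.21 (adjusted p = 0.0323). In young cells it had a difference of -0.20 ± 0.12 (adjusted p = 0.140), and it was called lower there when scaled to the 75th percentile (-0.44), by cyclic loess (-0.55), with array weights (-0.27) and without young in vivo replicate 3 (-0.28, adjusted p = 0.0478). In old cells it was called 1.32-fold higher (0.40 ± 0.12, adjusted p = 0.00805), a call that was lost under both other scalings (0.24 and 0.14) and with the mean over probe sets (0.18).

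**Figure D3:**
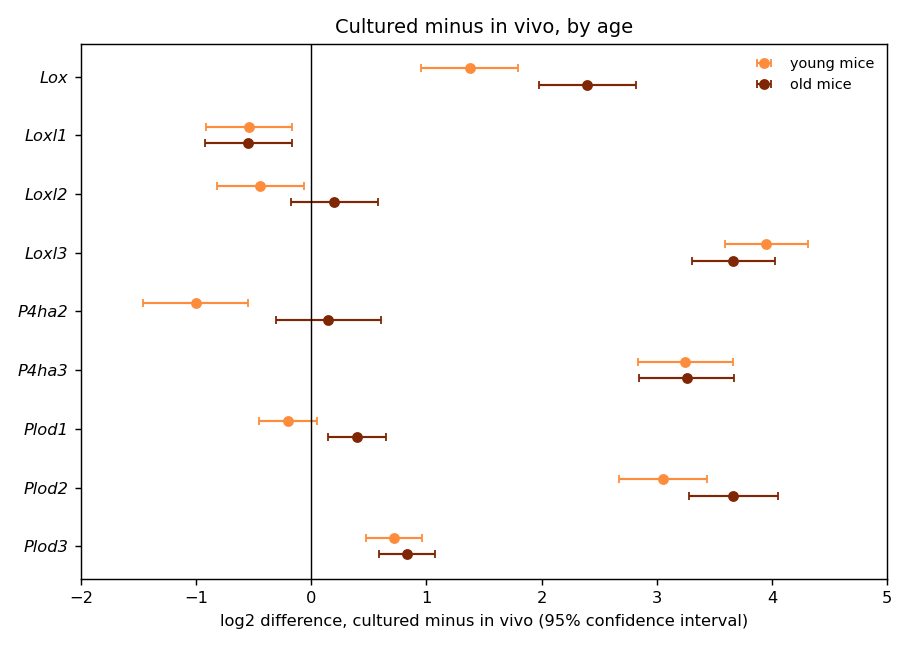
Log2 difference between cultured and in vivo arrays (x axis) for each measured member (y axis), in young and old mice; points are the fitted differences and bars their 95% confidence intervals. Loxl3, P4ha3 and Plod2 lie above 3 at both ages, whereas P4ha2 is below 0 in young mice (-1.005) and near 0 in old mice (0.15).

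The comparison of old with young mice asked whether these enzymes differed with age, and whether the difference was there both before and after culture. In freshly isolated cells Lox, Loxl2, P4ha2 and Plod1 were lower in each of the 4 old arrays than in each of the 4 young ones, by 1.59-fold to 1.95-fold, and none of these 4 differences passed the adjusted threshold. Such a lack of overlap toward lower values occurred for 2.73% of all genes. At an adjusted p under 0.05, 0 of the 9 members were called with limma fitted to the 8 in vivo arrays, against 0.439% of genes called lower and 0.911% called higher (1.35% in all). At an unadjusted p under 0.05, 5 members were lower and 0 higher, against 4.34% and 10.6% of all genes. In cultured cells 0 members were called, and 0 at an unadjusted p under 0.05, against 0% and 3.6% of all genes in either direction (1.96% higher and 1.63% lower at the unadjusted p). Nor did any member's ages separate without overlap in culture, which occurred for 2.06% of all genes (1.19% higher and 0.864% lower).

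For Lox the log2 difference in vivo was -0.93 ± 0.23 (95% interval -1.43 to -0.43, adjusted p = 0.0800). P4ha2 had a difference of -0.965 ± 0.245 (adjusted p = 0.0898), Plod1 one of -0.67 ± 0.14 (adjusted p = 0.0539) and Loxl2 one of -0.705 ± 0.224 (adjusted p = 0.157). Plod2 had -0.64 ± 0.21 (adjusted p = 0.176), with old replicate 4 (6.06) inside the young range of 5.85 to 6.55. The remaining members had smaller differences, Loxl1 at 0.07 ± 0.22, Loxl3 at 0.24 ± 0.20, P4ha3 at 0.05 ± 0.23 and Plod3 at -0.055 ± 0.131, and the interval that reaches farthest from 0 among them is that of Loxl3 (-0.20 to 0.68). Without old in vivo replicate 1 these 4 were at 0.31 ± 0.13 (Loxl1, adjusted p = 0.243), 0.35 ± 0.20 (Loxl3), -0.02 ± 0.25 (P4ha3) and 0.045 ± 0.121 (Plod3), so that P4ha3 and Plod3 changed sign. The 9 members had a median of -0.64, against 0.015 over all genes.

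These differences were close to the threshold and crossed it under other settings. Without old in vivo replicate 1, the array with high keratins, Lox was at -1.10 ± 0.21 (adjusted p = 0.0292) and P4ha2 at -0.68 ± 0.14 (adjusted p = 0.0334), so 2 members were called lower, against 0.614% of all genes (2.06% in either direction); Plod1 was at -0.70 ± 0.16 (adjusted p = 0.0532), Plod2 at -0.71 ± 0.23 (adjusted p = 0.139) and Loxl2 at -0.495 ± 0.176 (adjusted p = 0.176). The same 4 members were lower without overlap when that array was left out, against 4.39% of genes. Leaving out an array cannot make separate groups overlap, so these 4 had to stay apart. Their lack of overlap therefore does not test the part of that array. The second Lox probe set, at 8.79, 8.27, 8.49 and 8.52 in fresh young and 7.38, 6.84, 7.50 and 7.35 in fresh old cells, was called lower (-1.25 ± 0.16, adjusted p = 0.00616 over 35993 probe sets, limma). The second Plod2 probe set, at background in vivo, gave -0.13 ± 0.11 (adjusted p = 0.669), and that of Plod1, also dim, -0.045 ± 0.096 (adjusted p = 0.887). Without old in vivo replicate 4, Plod1 was called (-0.77, adjusted p = 0.0444). Over the other scalings, filters, fits and left-out arrays tried, the adjusted p ranged from 0.0121 to 0.178 for Lox, from 0.0145 to 0.186 for P4ha2, from 0.00424 to 0.150 for Plod1 and from 0.0284 to 0.264 for Loxl2. The lowest value of each came from the fit on all 16 arrays. That fit shares 1 spread with the cultured arrays, although in vivo arrays spread more. Of 16 such settings, Lox was called in 6, P4ha2 in 5, Plod1 in 7 and Loxl2 in 1, which was that fit.

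In cultured cells the same genes showed differences between old and young of 0.09 ± 0.12 (Lox, 95% interval -0.19 to 0.37), -0.06 ± 0.06 (Loxl2, -0.20 to 0.08), 0.19 ± 0.13 (P4ha2, -0.11 to 0.48) and -0.07 ± 0.08 (Plod1, -0.24 to 0.10). None of the 4 was past the threshold, and each had an adjusted p of 0.997. The age difference in culture minus that in vivo, tested over all 16 arrays, was 1.02 ± 0.28 for Lox (adjusted p = 0.120), 1.15 ± 0.30 for P4ha2 (adjusted p = 0.101), 0.60 ± 0.17 for Plod1 (adjusted p = 0.131), 0.64 ± 0.25 for Loxl2 (adjusted p = 0.287) and 0.615 ± 0.256 for Plod2 (adjusted p = 0.323, limma). So 0 of the 9 members passed this test, against 0.587% of all genes (0.196% higher and 0.391% lower), and 5 had an unadjusted p under 0.05, all of them higher, against 3.93% of genes. Without old in vivo replicate 1, Lox (1.19 ± 0.26, adjusted p = 0.0321) and P4ha2 (0.87 ± 0.19, adjusted p = 0.0379) passed, and the second Lox probe set passed with all arrays (1.45 ± 0.28, adjusted p = 0.0282). The other settings gave adjusted p values of 0.0321 to 0.249 for Lox and 0.0379 to 0.206 for P4ha2 in this test.

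**Figure D4:**
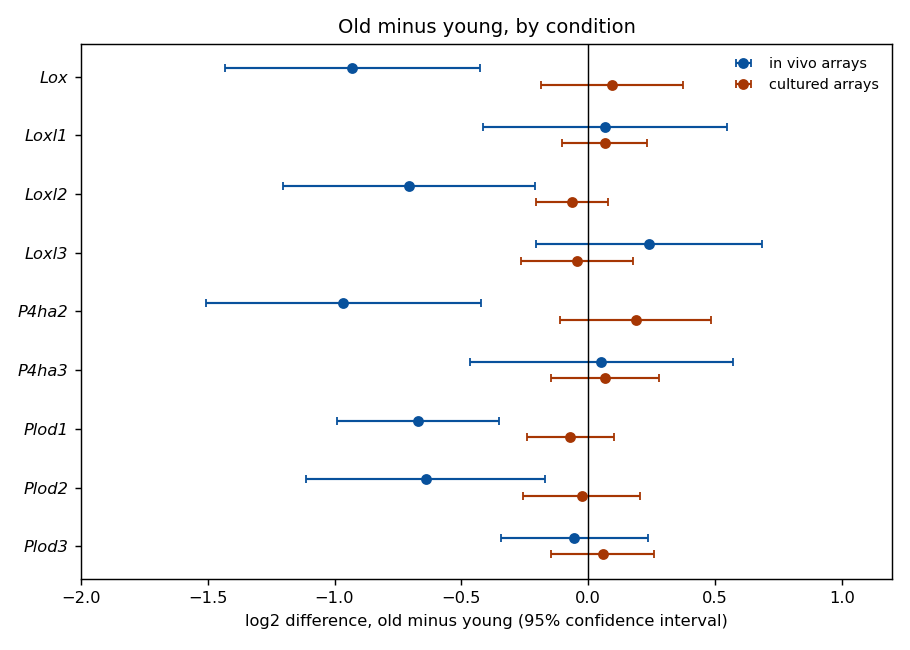
Log2 difference between old and young mice (x axis) for each measured member (y axis), in in vivo and in cultured arrays; points are the fitted differences and bars their 95% confidence intervals. In vivo the intervals of Lox, Loxl2, P4ha2, Plod1 and Plod2 lie below 0, and in culture all 9 intervals include 0; none of these differences passed the adjusted threshold.

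The members also differed in how much they varied between the arrays of a group. Each mouse gave 1 array per condition, so differences between mice and those of preparation cannot be told apart. The pooled SD within groups was larger among in vivo than among cultured arrays for 9 of 9 members, from 0.19 (Plod3) to 0.43 (P4ha2) in vivo and from 0.06 (Loxl2) to 0.21 (P4ha2) in culture. The same held for 72.1% of all genes, whose median SD was 0.19 in vivo and 0.13 in culture. Among the old in vivo arrays, replicate 1 had the lowest value of the group for 5 members (Loxl1, Loxl2, Loxl3, P4ha2 and Plod3) and the highest for Lox, while replicate 4 was above the group mean for 9 of 9 members. The 3' minus 5' difference of beta-actin control probe sets, a measure of 3' bias, was -0.41 ± 0.07 (SD, n = 4) in fresh young, -0.46 ± 0.11 in fresh old, 0.07 ± 0.04 in cultured young and 0.10 ± 0.07 in cultured old arrays, and the same difference of Gapdh was -0.08 ± 0.04, -0.145 ± 0.017, -0.105 ± 0.065 and -0.15 ± 0.02 in that order. The beta-actin measure thus differed between fresh and cultured arrays, while the Gapdh values overlapped between them, and their part in the culture changes was not tested.

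Genes that act with the members went in several directions with culture. Of 47 other tested genes of the collagen pathway (the fifth lysyl oxidase, collagen 3-hydroxylation, glycosylation, chaperones, proteinases, substrates, copper supply and related oxygenases), 13 were higher, 21 lower and 13 not called, with a median of -0.13. Over all genes 34.8% were called higher and 44.7% lower, with a median of -0.11. These shares also stand beside the list counts below. Scaled to the 75th percentile, 10 of the 47 genes were called higher and 31 lower, and after cyclic loess 10 higher and 30 lower. The list genes named here for a culture change kept direction and call under both. The fifth lysyl oxidase, Loxl4, fell (-0.45 ± 0.11, adjusted p = 0.00102, limma). The 3-hydroxylase complex had 2 of 7 genes higher and 3 lower (1 and 5 at the 75th percentile scaling, 1 and 4 by cyclic loess), with P3h1 at 0.68 ± 0.12, P3h3 at -1.14 ± 0.09 and the isomerase Ppib at -0.58 ± 0.07. Of the sugar transferases for hydroxylysine, Colgalt1 was higher (0.58 ± 0.09) and Colgalt2 lower (-0.59 ± 0.07), the latter with cultured means of 4.675 and 4.63, at the level of the control probe sets, where a change is understated. Among 6 chaperone and secretion genes 1 was higher and 2 lower (1 and 4 at the 75th percentile scaling, 1 and 5 by cyclic loess), with the coat protein Sec23a at 1.61 ± 0.16, Fkbp7 at -1.295 ± 0.083 and the collagen export receptor Mia3 at -0.91 ± 0.08.

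Procollagen proteinases and their enhancers were lower for 4 of 5 genes and higher for 1, with Bmp1, the C-proteinase that also matures Lox, at -1.37 ± 0.09, its enhancer Pcolce2 at -2.59 ± 0.10 and Tll1 at 1.70 ± 0.25. The 75th percentile scaling gave the same counts, and cyclic loess called 3 lower and 1 higher. Of the 4 lower genes, the 1 that cyclic loess did not call had group means of 4.025 to 4.18, below the control level of 4.75. Substrates and guides of the lysyl oxidases had 3 of 13 genes higher and 6 lower (2 and 8, and 2 and 9, under the same scalings). Eln, the elastin gene, fell by 2.59 ± 0.11 on the log2 scale and the matrix glycoprotein Tnxb by 2.55 ± 0.08, while Col11a1 rose by 1.55 ± 0.26 from fresh means of 5.04 and 4.755, close to background. Copper supply had 3 of 6 genes higher and 2 lower (2 and 3 under both), led by the transporter Slc31a2 (-1.80 ± 0.08), Commd1 (0.99 ± 0.11) and the copper importer Slc31a1 (0.77 ± 0.11). Of 7 related oxygenases and ascorbate transporters 2 were higher and 2 lower (2 and 5, and 2 and 4), with Egln3, a hydroxylase of the hypoxia-inducible factors, at 2.46 ± 0.25 from fresh means of 4.91 and 4.74, near background, P4htm at -1.50 ± 0.14 and Hif1an at 0.62 ± 0.08. Hypoxia-response genes were higher for 7 of 15 and lower for 3 (median 0.14), but for 5 and 5 when scaled to the 75th percentile and for 6 and 5 by cyclic loess, with Egln3, the oxidase Ero1a at 2.03 ± 0.08 and Ndrg1 at -3.395 ± 0.100. Within culture, arrays of the same age could differ for genes of this list. Vegfa, not called with culture, was at 8.78, 8.58, 9.70 and 9.81 in cultured young replicates 1 to 4. In cultured old cells it was at 8.87, 8.85, 9.84 and 9.91. Adm went the other way in cultured old cells, at 8.44, 8.47, 7.63 and 7.66. What set replicates 1 and 2 apart from 3 and 4 was not tested.

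**Figure D5:**
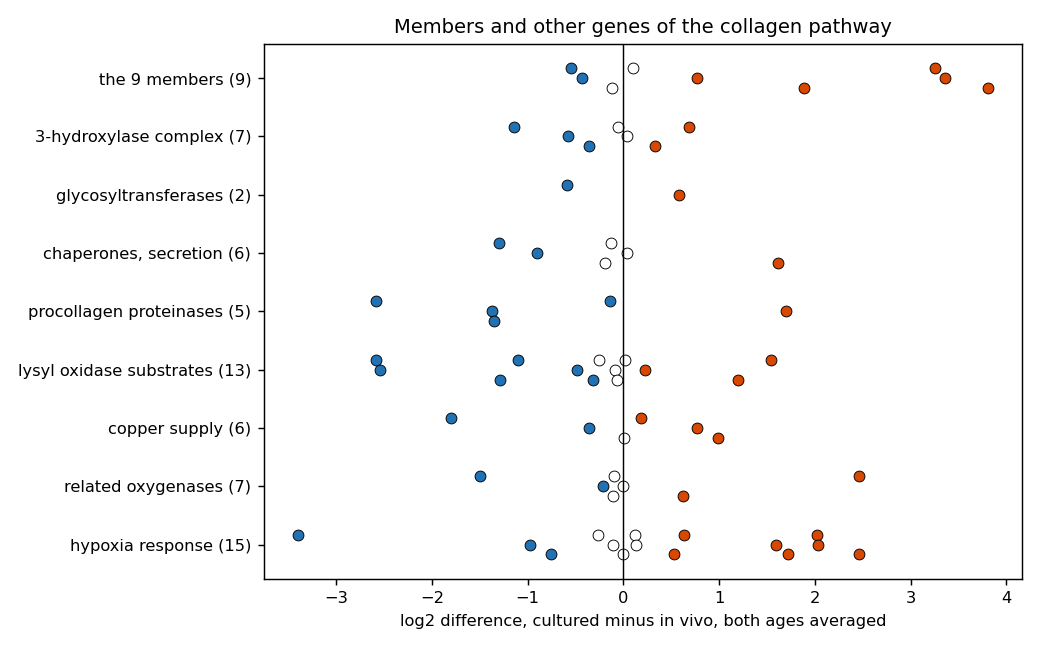
Log2 difference between cultured and in vivo arrays, both ages averaged (x axis), for the 9 measured members and for the tested genes of 8 lists (y axis, number of genes in brackets); each point is 1 gene, orange if called higher, blue if called lower and white if not called. The members reach 3.81 (Loxl3), whereas 4 of 5 procollagen proteinase genes and 6 of 13 substrate genes were lower, against 44.7% of all genes. Of these 4 proteinase genes, 1 was below the control level in all groups.

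With age in vivo, 2 of the 47 genes were called lower and 0 higher, both of them fibrillar collagen genes. Col5a2 was at 11.87, 11.74, 11.76 and 11.84 in fresh young and 10.86, 11.10, 11.33 and 11.29 in fresh old cells, a difference of -0.66 ± 0.12 (adjusted p = 0.0285, limma), and in culture it was at 11.62 to 11.85 and 11.65 to 11.84. Its age difference in culture minus that in vivo was 0.67 ± 0.14 (adjusted p = 0.0400), the 1 such call among the 47, and this call was lost in 12 of 23 other settings (adjusted p = 0.0538 to 0.104), 11 of them with 1 array left out. Col1a2 had -0.635 ± 0.133 (adjusted p = 0.0493, limma), from means of 8.75 in fresh young and 8.11 in fresh old cells. Its level was far below that of Col1a1 (12.58 and 12.46) and Col3a1 (12.455 and 12.33). Neither of these 2 collagen genes was called with age in vivo. Leaving out old in vivo replicate 1 kept the age call of Col5a2 (-0.56, adjusted p = 0.0298) and ended that of Col1a2 (-0.54, adjusted p = 0.0595), and the call of Col5a2 was also lost without any 1 of the 4 young arrays or old replicate 2 (adjusted p = 0.0617 to 0.0862), that of Col1a2 without any 1 of the 4 young arrays or old replicate 2 or 4 (adjusted p = 0.0767 to 0.133), with no filter on dim genes (0.0567) or with 1 variance per condition (0.0709). Of the 47 genes, 8 were without overlap between the ages, all lower in old cells, against 2.73% of all genes: Col1a2, Col5a1, Col5a2, Col5a3, Serpinh1, Sec24d, Slc31a1 and Loxl4. Loxl4 (-0.59 ± 0.13, adjusted p = 0.0576), Col5a1 (-0.635 ± 0.140, adjusted p = 0.0576) and Slc31a1 (-0.73 ± 0.17, adjusted p = 0.0698) did not pass. In 16 other settings Loxl4 was called lower in 3 (adjusted p = 0.0263 to 0.0340) and Col5a1 in 7 (adjusted p = 0.00570 to 0.0404), at 0.0392 without old in vivo replicate 1. The lowest value of Col5a1 came from the fit on all 16 arrays.

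The genes most like each member in pattern, by Pearson correlation over the 16 arrays and outside the lists, were for Lox the lipid phosphatase gene Plpp1 (0.979) and Tram1l1 (0.970), and for Loxl1 Cd248 (0.966), a stromal cell surface marker, and Abhd11 (0.955). For Loxl3 they were the serine synthesis gene Psph (0.995) and the noncoding Mir100hg (0.995), for P4ha3 Prpf31 (0.993) and the non-muscle myosin gene Myh9 (0.990), for Plod2 Btg3 (0.989) and Aplp1 (0.989), and for Plod3 Gabpb1 (0.983) and the thymidylate synthase gene Tyms (0.971). The 16 points share the gap between cultured and in vivo arrays. Loxl2 and P4ha2 shared a neighbour, the endoplasmic reticulum retention receptor gene Kdelr3 (0.904 and 0.925), whose group means were 10.11 in fresh young, 9.35 in fresh old, 9.59 in cultured young and 9.61 in cultured old cells. The other neighbours were Pprc1 for Loxl2 (0.923), the matrix glycoprotein gene Sparc for P4ha2 (0.937), and Sfswap (0.784) and B4galt2 (0.759) for Plod1.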

How the data were processed

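Expression was measured on 16 arrays (45141 probe sets). The deposited table holds 1 log2 value per probe set and array; the submitters' processing notes name RMA and affy, with no version, and no source states the log base, which the range of the deposited values gave. RMA corrects background, and differences of dim genes are understated. It equalises arrays that are processed together, so a change is relative to the other genes. Whether all 16 arrays were processed together is not stated. The array medians and upper percentiles given above separated fresh from cultured arrays, so the values were not fully equalised across the conditions. Culture changes may depend on this, and the other scalings are listed below. Probe sets listed with 1 symbol (28898) were used; 551 had several symbols, and 15588 were not listed, besides 104 control probe sets. Of those used, 28689 were matched to RefSeq by gene ID for current symbols. A gene was tested if at least 4 arrays exceeded 3.87, the 25th percentile of all values.

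Groups were compared with limma 3.58.1 (R 4.3.3; lmFit, eBayes, two-sided, Benjamini-Hochberg over 14819 genes, threshold 0.05). Culture and the interaction were fitted on all 16 arrays and age on the 8 arrays of its condition, since in vivo arrays spread more. Errors are SE of the fit unless SD is named. The mice are separate animals per the labels, and the number of arrays limits the precision. Named genes are the members, from each list the 3 with the largest culture change or any called with age or in the interaction, and the 2 most correlated genes per member. P4hb, Col1a1, Col3a1, Col5a1, Col5a3, Serpinh1, Sec24d, Vegfa and Adm were named after their values were seen. The members and lists were chosen with earlier results of these data known. The steps were tested on simulated data in which a small share of genes was changed and all others had no difference. With culture 79.5% of the measured genes were called, so the simulated shares need not hold for that comparison. Log2 changes of 0.5 were recovered in 28% of cases for age in vivo, 63.3% for age in culture and 82% for culture, both ages averaged. For changes of 1 the shares were 83.3%, 90.7% and 97% in that order. False calls made up 2.91%, 5.91% and 9.14% of the calls, the last 2 above the threshold of 0.05. Alternatives were 2 other scalings, 2 filters, the mean over probe sets, other fits and weights, single arrays left out and, added later, each other probe set.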

Additional observations from a re-analysis of the deposited data

Results flagged for a closer look

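Of 36 sets of 4 arrays (9 members in 4 groups), 3 had an array whose gap to its nearest neighbour, as a share of the range, exceeded Dixon's 95% critical value; chance gives about 1 in 20. Loxl3 in fresh young replicate 1 was at 6.09, below the other 3 arrays at 6.86 to 6.95. P4ha2 in fresh young replicate 1 was at 10.39, above 10.11 to 10.12. P4ha2 in young cultured replicate 3 was at 9.42, above 9.08 to 9.13. In none of the 3 sets is the array the one with high keratins. Without young in vivo replicate 1, the culture change in young cells was 3.75 for Loxl3 and -0.94 for P4ha2.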

How the results depend on the processing

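Over the alternatives planned for the 9 members and 6 comparisons, 929 of 972 values stayed on their side of the threshold, among them uncalled values whose sign changed. In the same direction, 10 lost a call and 32 gained one, and 1 reversed. The reversed one was Plod1 with culture, both ages averaged, at -0.21 after cyclic loess; its dim second probe set gave -0.0475 in old cells. With culture, both ages averaged, Col5a1 turned from 0.02 to -0.18 at the 75th percentile scaling and -0.27 after cyclic loess, and Col5a2 from 0.23 to -0.0563 after cyclic loess. The counts of genes and of members called in the 3 culture comparisons stayed within 1.5 times of the main ones; several counts within the gene lists did not, and stand with each list. Age in vivo was the comparison that moved most. Its count of 200 genes became 900 when the spread was taken from all 16 arrays, 392 with array weights and 372 with 1 variance per condition, and 60 to 306 with 1 array left out (306 without old in vivo replicate 1 and 60 to 132 without any other of the 8, each a move of over 1.5 times). Its count of 0 members became 5 on all 16 arrays (Lox, Loxl2, P4ha2, Plod1 and Plod2), 3 after scaling to the 75th percentile, 3 with 1 variance per condition, 2 after cyclic loess, 2 with array weights, 1 with the stricter filter, 1 with the mean over probe sets and 0 to 2 with 1 array left out; every such call was lower in old cells. Age in culture went from 0 genes to 1 with 1 variance per condition. The interaction went from 87 genes to 185 with array weights and to 44 to 200 with 1 array left out (161 without young in vivo replicate 1, 200 without old in vivo replicate 1, and 44 to 55 without young cultured replicate 1, 2 or 4 or old cultured replicate 2 or 4), and from 0 members to 1 after cyclic loess (P4ha2), 1 with the mean over probe sets (Lox), 1 with array weights (Plod1) and 0 to 2 with 1 array left out. The share of age calls in vivo that were higher was 67.5%, 43.9% when scaled to the 75th percentile, 51.1% by cyclic loess; for the interaction it was 33.3%, 55.9% and 45.2%. The causes of these moves were not tested. No paired analysis was possible because the labels do not say which fresh and cultured samples belong to the same mouse. Signal over background limits P4ha3, Egln3, Col11a1 and the second Plod2 probe set in vivo and Colgalt2 in culture. It limits the second Plod1 probe set and 1 of the lower procollagen proteinase genes in all groups.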
